A study of Mus musculus with 20 samples.

Results

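Angptl4 and Lpl were followed in the livers of male C57BL/6J mice that lived from 8 weeks of age with or without continuous 137Cs gamma rays. They are 2 of the 18193 genes that the array annotation names singly, and each is read by 2 probe sets, which were all used. Hepatic lipase, Lipc, also belongs to the set but had no probe set under its single symbol in the annotation used here and was not analysed here. Angptl4 was chosen with its lower signal at the highest dose-rate than in the unirradiated pools, and the disagreement of its probe sets, in view; Lpl joins it as the enzyme it controls. Differences of Angptl4 between dose levels that rest on the pools or on the highest dose-rate are therefore given as a description, without a test. Its difference between experiments, fitted with dose level as a term, and its variation within groups were tested, and both also use those arrays. Experiment 1 lasted 485 days at 0.042 (low), 0.858 (medium) or 16.6 (high) mGy per day, with cumulative doses of 20.6, 416 and 8030 mGy. Experiment 2 lasted 401 days at 0.05, 1.00 or 20.0 mGy per day, with 20, 401 and 8015 mGy. Each level had 3 mice per experiment, 1 mouse on each array, and the unirradiated control was 1 array of pooled RNA per experiment, from 3 mice in experiment 1 and 6 mice in experiment 2. A pool has no spread of its own, and its values are those of 1 array.

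Lipoprotein lipase, the product of Lpl, is anchored to the capillary wall by GPIHBP1 and cuts the triglycerides of chylomicrons and VLDL, so that tissues can take up the fatty acids. ANGPTL4 is secreted, inactivates the lipase and raises plasma triglycerides. In liver its gene is switched on during fasting, by PPAR transcription factors that sense fatty acids and by the glucocorticoid receptor. The adult hepatocyte makes little lipoprotein lipase, and resident macrophages are a known source of it in liver.

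The values are MAS5 signals, a linear measure of probe brightness. Array medians lay between 81.1 and 104.6. More genes were called between experiments than between dose levels. Between experiments 42.6% of 11217 genes had an adjusted p under 0.05 (limma), 28.0% higher and 14.6% lower in experiment 2. The dose contrasts use fewer arrays, 6 mice against 2 pools or against 6 mice, so the counts are not of equal power. The experiments differed in duration, and so in age at the end, in dose-rate and possibly in handling. These cannot be told apart in that difference. Dose levels were compared with the experiment as a term. All 10 hepatocyte markers named on the array were bright, the dimmest being Asgr1 with 12587 on its lowest array.

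Angptl4 was lower in all 18 irradiated livers than in the pool of their experiment, read by its bright probe set 1417130_s_at. In experiment 1 the pool had a signal of 4782. The low dose-rate mice had 3182, 3582 and 1839, the medium 1709, 1771 and 1354, and the high 1770, 1330 and 1995. Medium and high mice thus overlapped, all medium mice lay below all low mice, and 1 low mouse lay among the high mice. In experiment 2 the pool had 6124. The low mice had 3305, 5628 and 4593, the medium 2709, 3243 and 4537, and the high 1211, 2398 and 2229. Here the high mice lay below every medium and low mouse, as in 6.58% and 7.83% of genes, whereas medium and low overlapped.

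**Figure D1:**
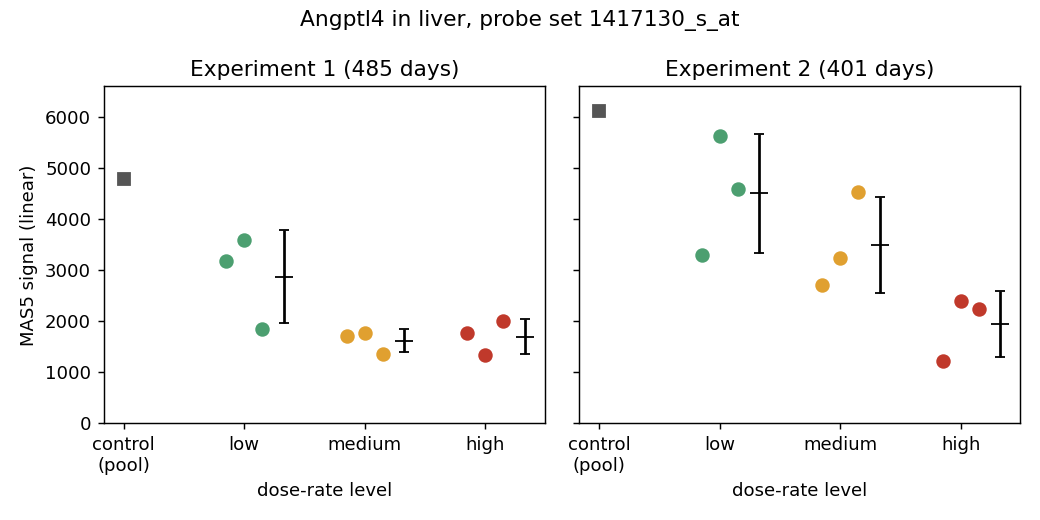
Signal of the bright Angptl4 probe set (linear axis) by dose level in each experiment; squares are single control pools, circles single mice, and bars the mean and SD of 3 mice. The pools of 4782 and 6124 lie above all 18 mice, and the high mice lie between 1211 and 2398.

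Over both experiments the mean signal of Angptl4 was 3688 ± 1297 at the low, 2554 ± 1200 at the medium and 1822 ± 479 at the high dose-rate (SD, n = 6 each). On the log2 scale the difference from control was -0.63 ± 0.30 at the low, -1.21 ± 0.30 at the medium and -1.61 ± 0.30 at the high dose-rate (SE of the contrast, 6 mice against 2 pools). As a share of their own pool, single mice held 0.385 to 0.919 at the low, 0.283 to 0.741 at the medium and 0.198 to 0.417 at the high dose-rate. The ranges of neighbouring levels overlapped. Among all genes 8.20% had all 6 high mice below their pool, 7.61% all 6 medium mice and 4.75% all 6 low mice, and 0.945% had all 18 mice below. Nothing is read from these shares for Angptl4, since it was chosen on that contrast. In a bulk liver sample, fewer cells that make a transcript and less of it per cell cannot be told apart.

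In both experiments the pool was highest, the low mean came next and the medium and high means were lowest. In experiment 1 the medium mean was 0.78 below low on the log2 scale and the high mean was 0.07 above medium. In experiment 2 medium was 0.37 below low and high was 0.87 below medium. Over both experiments the high mean was 0.40 ± 0.21 below medium and 0.98 ± 0.21 below low (SE, 6 mice against 6).

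Medium against low uses neither the pools nor the high mice, and was the 1 dose contrast of Angptl4 that was tested. Angptl4 was -0.57 ± 0.21 at medium relative to low (95% interval -1.01 to -0.14), with an unadjusted p of 0.0121. It did not pass adjusted over all genes (adjusted p = 0.503, limma), where 0 of 11217 genes passed (0%) and 7.89% had an unadjusted p under 0.05. With only the low and medium mice fitted the SE was 0.18 and the adjusted p 0.542 (limma). The difference between experiments in this contrast was 0.42 ± 0.39 (adjusted p = 0.789 for the interaction, limma). Separation of the kind seen in experiment 1, with all 3 medium mice below all 3 low mice, was shared by 5.39% of genes.

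Angptl4 was higher in experiment 2. The difference of experiment 2 from experiment 1 was 0.61 ± 0.16 on the log2 scale (adjusted p = 0.00428, limma), a 1.53-fold difference on this scale. The pool and the low and medium means were each higher there, and the high mice of the experiments overlapped, at 1330 to 1995 and 1211 to 2398. Since 28.0% of all genes were also called higher, a call of this kind is common in these data.

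The other Angptl4 probe set, 1453410_at, was dim and did not pass the filter on low signal. Its signal was 20.2 and 24.98 in the pools and ran from 2.02 to 65.4 over all arrays, below the array's own median on 20 of 20. In experiment 1 the low mice had 13.2, 10.02 and 11.2, the medium 27.1, 36.1 and 65.4, and the high 16.9, 12.4 and 18.7. In experiment 2 the low mice had 16.5, 32.7 and 20.4, the medium 18.9, 31.8 and 28.6, and the high 44.5, 2.02 and 47.3. The medium mice of experiment 1 lay above the pool and all other mice of that experiment. The share of probe sets with such a separation was not computed, and the signals are near the floor. The differences from control were -0.34 ± 0.61 at the low, 0.42 ± 0.61 at the medium and -0.19 ± 0.61 at the high dose-rate (SE, fit over all probe sets). Medium against low was 0.76 ± 0.43. Since the disagreement of the sets was part of the choice, these values are a description and nothing is read from their signs. The bright set's name ends in _s_at, a suffix that Affymetrix uses for probe sets whose probes can match more than 1 transcript, and no probe sequence was used here to resolve this.

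**Figure D2:**
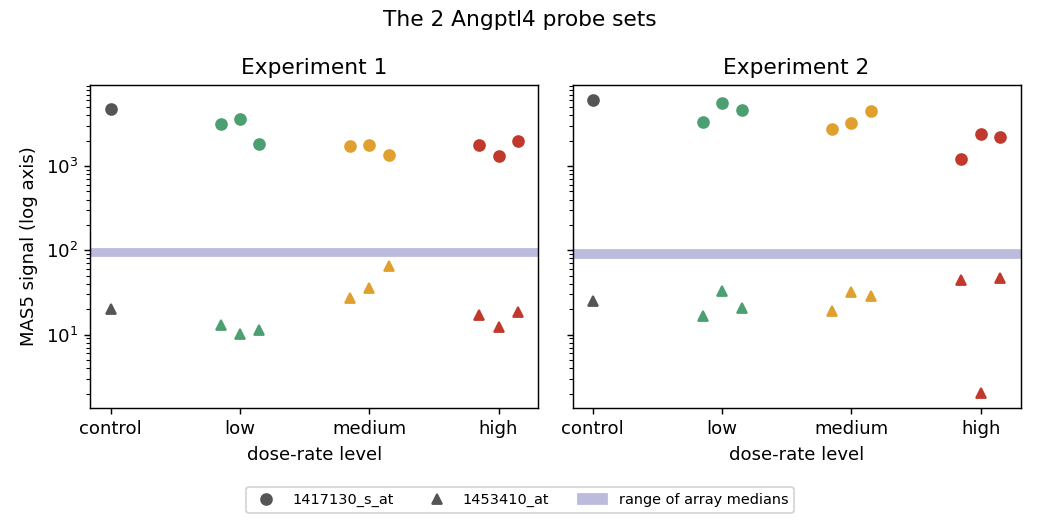
Signal of both Angptl4 probe sets on a log axis by dose level; circles are the bright set, triangles the dim set, and the band the range of array medians. Every triangle lies under the band and every circle above it.

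Lpl, the lipase gene itself, was not called at any dose level. Its main probe set, 1415904_at, had a signal of 1169 in the experiment 1 pool and 1046 in the experiment 2 pool. In experiment 1 the low mice had 1718, 1722 and 2593, the medium 1105, 1350 and 2059, and the high 1232, 1329 and 2538. In experiment 2 the low mice had 968, 1136 and 1383, the medium 1748, 958 and 1131, and the high 1991, 1501 and 1206. All 3 levels overlapped in each experiment, and in every irradiated group of experiment 1 a single mouse was well above the other 2.

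**Figure D3:**
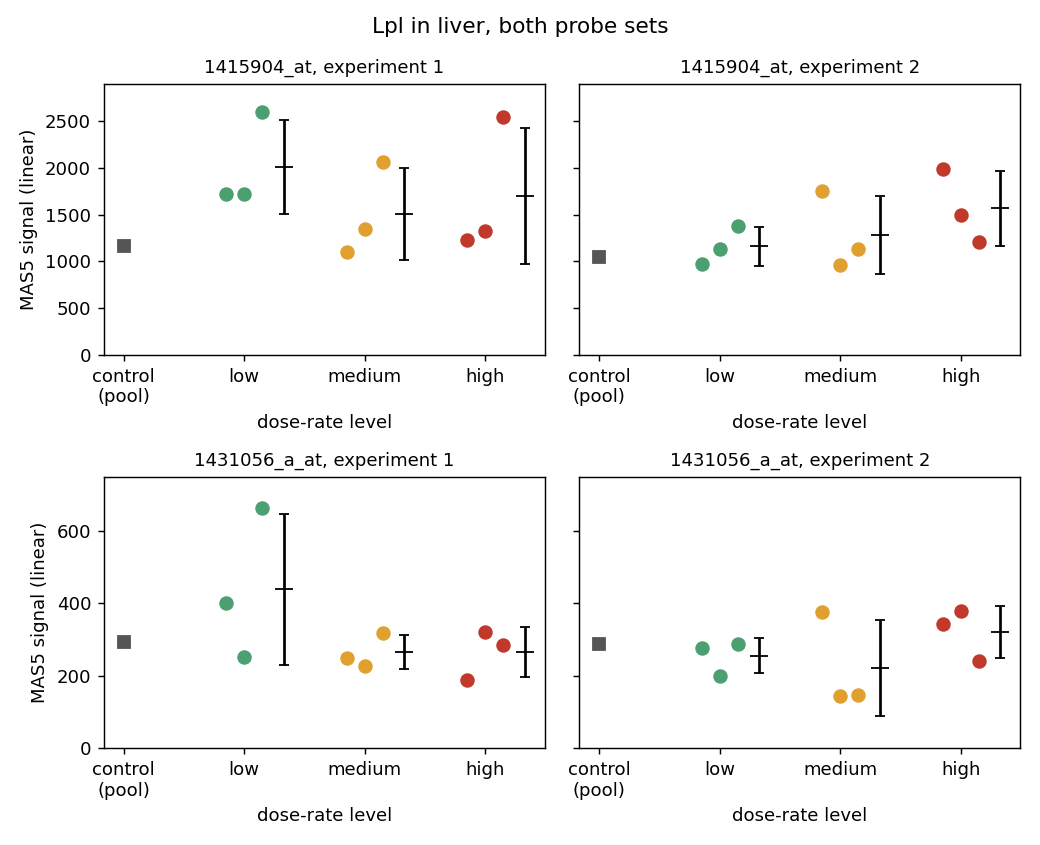
Signal of both Lpl probe sets (linear axes) by dose level in each experiment, with squares for pools, circles for mice and bars for the mean and SD of 3 mice. The mice of different levels overlap in all 4 panels.

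All 6 high mice were above their own pool on the main Lpl probe set, at 1.05 to 2.17 of its signal, as for 8.34% of all genes. Of the low mice 5 of 6 were above, and of the medium mice 4 of 6. The difference from control was 0.50 ± 0.29 on the log2 scale at the high dose-rate (95% interval -0.10 to 1.11, adjusted p = 0.75, limma). It was 0.28 ± 0.29 at the medium (adjusted p = 0.922) and 0.44 ± 0.29 at the low dose-rate (adjusted p = 0.999, limma). Called genes made up 0.0624%, 0.0357% and 0.00892% of all genes in these contrasts. Differences between irradiated levels were smaller. High against low was 0.06 ± 0.21 (95% interval -0.37 to 0.49, adjusted p = 0.944, limma), high against medium 0.23 ± 0.21 (interval -0.20 to 0.65) and medium against low -0.17 ± 0.21 (interval -0.59 to 0.26), where 0% of genes were called. The interval at the high dose-rate thus includes 0 as well as a 2-fold higher level.

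The second Lpl probe set, 1431056_a_at, was dimmer and did not show the same order. Its signals were 294 and 287 in the pools. In experiment 1 the low mice had 400, 253 and 664, the medium 249, 228 and 319, and the high 189, 322 and 286. In experiment 2 the low mice had 278, 200 and 289, the medium 375, 143 and 147, and the high 343, 379 and 240. At the high dose-rate 3 of 6 mice were above their pool and 3 below. The differences from control were 0.14 ± 0.35 at the low, -0.33 ± 0.35 at the medium and -0.02 ± 0.35 at the high dose-rate (SE, adjusted p between 0.956 and 1.00, limma). Both sets read Lpl lower at medium than at low, with -0.47 ± 0.25 on the second (adjusted p = 0.808). The suffix _a_at marks a set whose probes match several transcripts of 1 gene.

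Lpl was -0.34 ± 0.16 in experiment 2 relative to experiment 1 on the main probe set (adjusted p = 0.0928, limma) and -0.24 ± 0.19 on the second (adjusted p = 0.442). On the main set it passed without high mouse 1 of experiment 1 (adjusted p = 0.0444) and without medium or high mouse 1 of experiment 2 (adjusted p = 0.0415 and 0.0465, limma). This is the direction opposite to that of Angptl4. Of the 6 dose contrasts of the main Lpl probe set, 0 passed as different between the experiments (adjusted p from 0.732 to 1.00 for the interactions, limma, with 0 of 6 at an unadjusted p under 0.05). Of all genes 3.79%, 3.28% and 4.33% had such an unadjusted p for high, medium and low against control, and 4.95%, 6.91% and 8.51% for high against medium, high against low and medium against low, while at most 1 gene (0.00892%) passed in any of these. The largest difference was for high against low, which was -0.29 in experiment 1 and 0.41 in experiment 2 (difference 0.71 ± 0.41, adjusted p = 0.807).

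**Figure D4:**
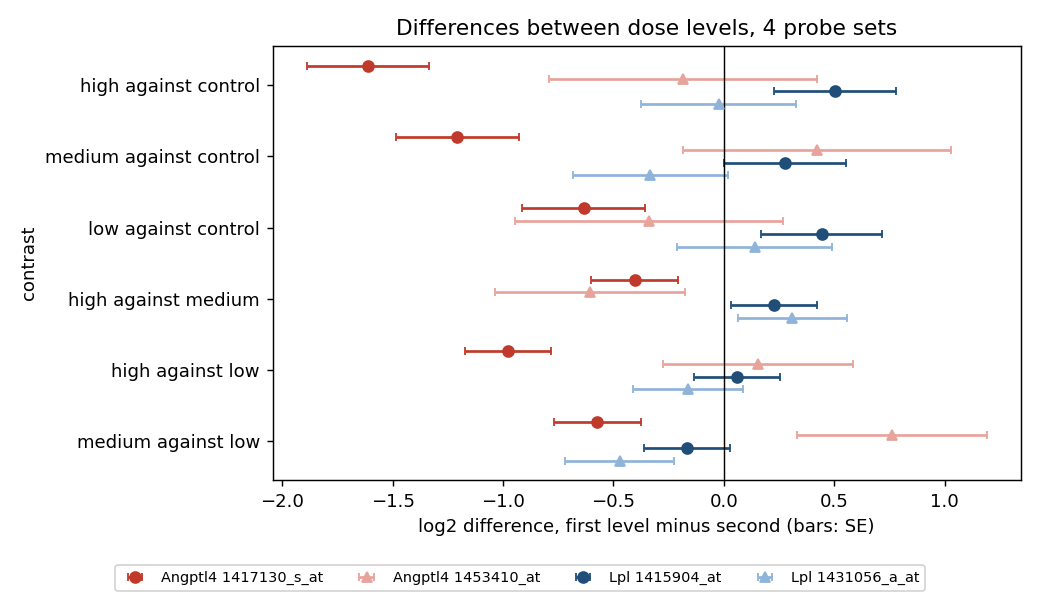
Log2 differences between dose levels for the 4 probe sets, with bars of 1 SE from the fit over all probe sets; the vertical line marks 0. The bright Angptl4 set runs from -1.61 for high against control to -0.40 for high against medium, while the Lpl sets lie between -0.47 and 0.50.

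The lipase and its inhibitor were next compared mouse by mouse within groups, as log2 deviations from the mean of the 3 mice of a group. Over the 18 irradiated mice Angptl4 and Lpl had a Pearson r of -0.35 (exact permutation within groups, two-sided p = 0.2, adjusted p = 0.28) and a Spearman rho of -0.17 (exact p = 0.524, adjusted p = 0.611). Without the 2 mice farthest from the median of Angptl4 the r was -0.0088 (exact p = 0.979). The size of this r, which did not pass, thus depended on those mice. Within experiments r was -0.29 (n = 9, exact p = 0.486) and -0.43 (n = 9, exact p = 0.343). Without high mouse 3 of experiment 1, which had the highest Lpl of its group at 2538 and the highest Angptl4 at 1995, r was -0.58 (exact p = 0.0452), and with arrays centred on their median it was -0.19 (exact p = 0.425).

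With the second Lpl probe set r was -0.64 (exact p = 0.0251) and rho -0.55 (exact p = 0.0629). Adjusted over the 7 relations computed these were 0.0878 and 0.147, which do not pass. Without the 2 mice farthest from the median of Angptl4 r was -0.59 (exact p = 0.0669), and within experiments it was -0.84 (n = 9, exact p = 0.0602) and -0.50 (n = 9, exact p = 0.222). Pearson r was below 0 with both probe sets in both experiments. Spearman rho was 0.10 and -0.25 with the main set in experiments 1 and 2 (n = 9 each, exact p = 0.806 and 0.579) and -0.68 and -0.23 with the second (exact p = 0.167 and 0.616), so its sign was not the same throughout. The Lpl probe sets themselves had an r of 0.66 (exact p = 0.013, adjusted p = 0.0878; 0.75 without the 2 farthest mice) and a rho of 0.59 (exact p = 0.0327, adjusted p = 0.147). The Angptl4 sets, chosen with their disagreement known, had an r of -0.17 and a rho of 0.03, given as a description.

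**Figure D5:**
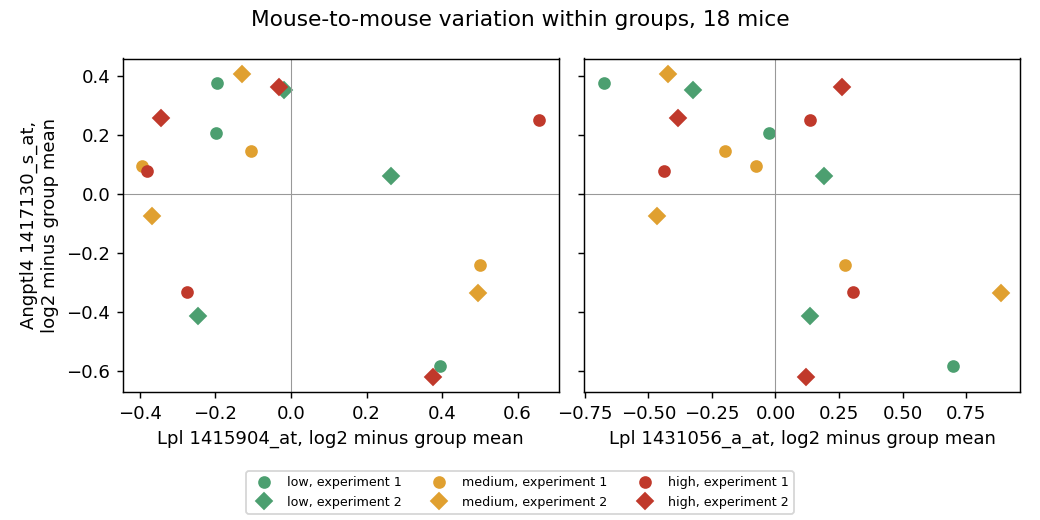
Deviation of each of 18 mice from its group mean (log2), Angptl4 on the y axis against the main (left) and second (right) Lpl probe set on the x axis; colours are dose levels and symbols experiments. The r is -0.35 on the left and -0.64 on the right, and high mouse 3 of experiment 1 sits at the upper right of the left panel.

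Genes whose pattern was nearest to that of Angptl4 were found by Pearson r over the 20 arrays after the mean of each experiment was removed. The pools and dose levels shape this measure, so it is a description. The highest were Gabarapl1 (r = 0.85), a member of the ATG8 family that acts in autophagy, Stmn1 (0.82), which destabilises microtubules, Klhl24 (0.82), a substrate adaptor of a ubiquitin ligase, Lurap1l (0.80) and Smurf2 (0.78), a ubiquitin ligase of TGF-beta signalling. Within single experiments their r was 0.71 to 0.91. Their own differences from control at the high dose-rate were smaller than that of Angptl4. They ran from -0.73 ± 0.19 for Lurap1l to -0.39 ± 0.12 for Gabarapl1. The genes were picked on the same arrays, so these differences are given without a test. The most opposite were Pxdc1 (r = -0.86), Klhl6 (-0.83) and Pde4b (-0.82), a phosphodiesterase that breaks down cyclic AMP. Pde4b was 1.10 ± 0.32 above control at the high dose-rate, also given without a test.

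The genes nearest to Lpl by the same measure were Ccl5 (r = 0.80), a chemokine of T cells and macrophages, Tmsb4x (0.79), an actin-binding peptide abundant in blood cells, and Cd74 (0.79), the invariant chain of MHC class II. In experiment 1 their r was 0.80 to 0.82 and in experiment 2 it was 0.73 to 0.86. At the high dose-rate Ccl5 was 0.70 ± 0.56, Tmsb4x 0.26 ± 0.16 and Cd74 0.43 ± 0.32 relative to control. These genes too were picked on the same arrays, so no test is given.

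Markers of Kupffer cells and other macrophages were examined beside Lpl. All 11 were named on the array. Their deviations from the group means had an r with those of Lpl between -0.34 (Timd4) and 0.78 (Lyz2) over 18 mice, above 0 for 9 markers and above 0.5 for 8. The share of all genes with such an r was not computed, so nothing is read from these counts. Adgre1, which encodes F4/80, had an r of 0.77, and the scavenger receptor Marco -0.10. The mean log2 level of the list had an r of 0.42 with Lpl (exact p = 0.13, adjusted p = 0.228) and a rho of 0.28 (exact p = 0.318, adjusted p = 0.445), and without the 2 mice farthest from the median of the list r was 0.33 (exact p = 0.319). With the second Lpl probe set r was 0.58 (exact p = 0.0442, adjusted p = 0.103; 0.47 without the 2 farthest mice) and rho 0.53 (exact p = 0.0524). In experiment 1 r with the main set was 0.09 (n = 9, exact p = 0.856) and in experiment 2 it was 0.73 (n = 9, exact p = 0.106). With Angptl4 the list had an r of -0.36 (exact p = 0.276, adjusted p = 0.322; -0.07 without the 2 farthest mice) and a rho of -0.34 (exact p = 0.29).

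Summed macrophage marker signal was 24247 in the pool of experiment 1 and 25792 to 35963 at the low, 22237 to 32123 at the medium and 25678 to 32067 at the high dose-rate. In experiment 2 it was 28949 in the pool and 26596 to 31621, 21858 to 31784 and 21890 to 32241 at the 3 levels. The ranges of the levels overlapped. For medium against low, where Lpl was -0.17, all 11 markers were lower, with a median of -0.19, against 48.7% of all genes lower, and 0 passed (2 had an unadjusted p under 0.05, limma, as did 7.89% of all genes). For high against low, where Lpl was 0.06, 10 of 11 were lower (median -0.15), against 50.1% of all genes. Relative to control 8 of 11 were higher at the high dose-rate (median 0.08; Lpl 0.50), 5 at the medium (-0.05; Lpl 0.28) and 9 at the low (0.16; Lpl 0.44), and 0 passed, with 0 at an unadjusted p under 0.05. Of all genes 49.7%, 48.9% and 50.1% were lower than control at the high, medium and low dose-rate. The part of these cells in the Lpl signal was not tested. Among adipocyte markers, Lep was below the array median on 20 of 20 arrays, Retn on 19 and Adipoq on 18, while Fabp4, Plin4, Lipe and Cidea were above it on all. Cidea, a lipid droplet protein, was the brightest (mean 6015). Its mean signal was larger than those of the other named adipocyte markers together, so a sum over the list mostly follows Cidea. Such a sum is not read as an amount of fat cells. The summed signal of the 7 named adipocyte markers in experiment 1 was 6526 in the pool, 6306 to 9329 at the low, 8807 to 10912 at the medium and 9473 to 10797 at the high dose-rate. In experiment 2 it was 8073 in the pool and 3497 to 12927, 5342 to 11023 and 5881 to 9453 at the 3 levels. Its part in the Angptl4 and Lpl results was not tested. Of 10 muscle markers 7 were below the array median on every array.

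Proteins that handle the lipase or remodel its substrates formed a list of 24 genes, 22 of them tested. At the high dose-rate 14 were higher and 8 lower than control, with a median of 0.09 against 0.00 for all genes, and 0 passed (1 had an unadjusted p under 0.05, limma, as did 7.18% of all genes). That gene was Lmf1, which matures the lipase in the endoplasmic reticulum, at -0.39 ± 0.17 (adjusted p = 0.651), with 5 of 6 mice below their pool. Sel1l, which also takes part in that maturation, was -0.31 ± 0.15 (adjusted p = 0.713), with 6 of 6 below, as for 8.20% of all genes. Pcsk6, a protease that cleaves the lipase, was -0.18 ± 0.13 (adjusted p = 0.804). Hspg2, a heparan sulphate proteoglycan of the basement membrane, was 0.34 ± 0.22 relative to control (adjusted p = 0.791) and 0.41 ± 0.16 relative to low (adjusted p = 0.35). For high against low 5 of the 22 had an unadjusted p under 0.05, against 10.1% of all genes, and 0 passed, Vldlr (0.78 ± 0.32), Lmf2 (0.34 ± 0.14) and Lmf1 (-0.27 ± 0.12) among them. For medium against low 3 of the 22 had an unadjusted p under 0.05, against 7.89% of all genes, and 0 passed.

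Between experiments the list held 12 of 22 members that passed as higher in experiment 2 and 1 as lower, where 28.0% of all genes were called higher and 14.6% lower, with a median of 0.21 against 0.08 for all genes. Gpihbp1, the endothelial anchor of the lipase, rose by 0.30 ± 0.07 (adjusted p = 0.00139, limma), and Lrp1, a remnant receptor, by 0.77 ± 0.10 (adjusted p = 3.74e-06). Apoa5, which promotes lipolysis, rose by 0.26 ± 0.08 (adjusted p = 0.00807), and Apoc3, which slows it, rose by 0.14 ± 0.05 (adjusted p = 0.0321). Cd36, a fatty acid transporter, was the member that fell, by 0.42 ± 0.17 (adjusted p = 0.0451). The other 8 that rose were Pcsk6, Lsr, Lmf2, Furin, Hspg2, Sdc1, Apoa4 and Apoe, by 0.18 to 0.75 (adjusted p up to 0.0149).

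Relatives of Angptl4 were few. Of 9 angiopoietins and angiopoietin-like genes listed, 7 were named on the array and 3 passed the filter on low signal, and 0 passed in any dose contrast (0 with an unadjusted p under 0.05, limma). Angptl8, a feeding-induced gene of lipase control, had signals of 2160 and 1224 in the pools and 2394 ± 714 at the high dose-rate, a difference of 0.49 ± 0.53 (adjusted p = 0.86). Angptl6 was -0.08 ± 0.13 and Angpt2, a ligand of the endothelial receptor Tek, 0.17 ± 0.41. Angptl6 rose by 0.82 ± 0.07 in experiment 2 relative to experiment 1 (adjusted p = 2.58e-08, limma). Of 10 lipases and related hydrolases tested (16 listed) 0 passed at the high dose-rate and 3 had an unadjusted p under 0.05 (7.18% of all genes). These were the lysosomal acid lipase Lipa (0.37 ± 0.15, higher than the pool in 6 of 6 mice), Pnpla3 (1.42 ± 0.61, higher in 5 of 6) and the adipose triglyceride lipase Pnpla2 (-0.29 ± 0.13, lower in 6 of 6), with adjusted p from 0.615 to 0.64 (limma). All 6 high mice lay above their pool for 8.34% of all genes and below it for 8.20%. Pla1a, a phospholipase of the same family as Lpl, was -0.23 ± 0.15 (adjusted p = 0.791). For high against low 4 of the 10 lipases and hydrolases had an unadjusted p under 0.05 (limma), against 10.1% of all genes, and 0 passed.

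Transcription factors that act on Angptl4 had a median of -0.18 at the high dose-rate against 0.00 for all genes, or -0.01 without the experiment 1 pool. Of 13 tested, 6 were higher and 7 lower, 0 passed and 5 had an unadjusted p under 0.05 (limma), against 7.18% of all genes. Pparg, which drives Angptl4 in fat, was 0.94 ± 0.28 relative to control and higher in 6 of 6 mice (adjusted p = 0.365). Creb3l3, a fasting-induced factor of hepatocytes, was -0.35 ± 0.10 (adjusted p = 0.365), the common partner Rxra -0.40 ± 0.16 (adjusted p = 0.615) and Hnf4a -0.63 ± 0.23 (adjusted p = 0.534), each lower in 6 of 6 mice. All 6 high mice lay above their pool for 8.34% of all genes and below it for 8.20%. For high against low 4 of the 13 had an unadjusted p under 0.05 (limma), against 10.1% of all genes, and 0 passed. These were Epas1 (0.20 ± 0.07), Ppargc1a (0.39 ± 0.15), Hnf4a (-0.43 ± 0.16) and Ppara itself (0.31 ± 0.13). Their adjusted p ran from 0.305 to 0.421 (limma), and Ppara was named after its values were seen. Relative to the pool of their experiment, however, 4 of 6 high, 4 of 6 medium and 6 of 6 low mice had less Ppara. All 6 low mice lay below their pool for 4.75% of all genes. In experiment 2, 7 of the 13 passed as higher (Epas1, Foxo1, Rxra, Creb3l3, Ppargc1a, Ppard and Hif1a) and Hnf4a as lower, against 28.0% and 14.6% of all genes.

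Other genes under the same inducers were counted next. Of 29 tested genes that PPAR alpha induces, most of them in fatty acid oxidation, 17 were lower and 12 higher at the high dose-rate, with a median of -0.04, and 0 passed (4 had an unadjusted p under 0.05, limma, against 7.18% of all genes). The carnitine transporter Slc22a5 was -0.99 ± 0.24 and the thioesterase Acot1 -0.96 ± 0.25 (adjusted p = 0.241 for each). Hsdl2 was -0.30 ± 0.11 and Cpt1a -0.31 ± 0.14, and each of the 4 was lower in 6 of 6 mice. These 4 had the smallest p of the list, and 8.20% of all genes had all 6 high mice below their pool. Among the 12 that were higher, Pdk4, named after its values were seen, was below its pool in 0 of 6 high mice. Its signal was 943 ± 182 at the high dose-rate and 727 and 499 in the pools. Against low, where the difference of Angptl4 was -0.98, 22 of the 29 were higher at the high dose-rate, with a median of 0.13, and 0 passed. Of all genes 50.1% were lower in that contrast. Relative to the pools the low dose-rate had 27 of the 29 lower (median -0.14) and the medium 21 (median -0.11), with 0 passed. Of all genes 50.1% and 48.9% were lower there. These genes are all set against the same 2 pool arrays, so their directions are not independent.

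Of 17 tested glucocorticoid-induced genes 9 were higher and 8 lower than control at the high dose-rate. The median was 0.03, or -0.56 without the experiment 1 pool, and 0 passed (8 had an unadjusted p under 0.05, limma, against 7.18% of all genes). Zbtb16 was -2.24 ± 0.43 (adjusted p = 0.0531), Klf9 -0.63 ± 0.16 (adjusted p = 0.241) and Fkbp5 -0.62 ± 0.20 (adjusted p = 0.414), each lower in 6 of 6 mice. Igfbp1 was 1.10 ± 0.35 (adjusted p = 0.398) and higher in 6 of 6. All 6 high mice lay below their pool for 8.20% of all genes and above it for 8.34%. Against low the median was -0.27, and 0 passed (8 of 17 had an unadjusted p under 0.05, against 10.1% of all genes). Klf9 was -0.49 ± 0.11, Igfbp1 0.99 ± 0.25, Zbtb16 -1.20 ± 0.31 and the clock gene Per1 -1.37 ± 0.38 there (adjusted p from 0.141 to 0.185, limma). Of 15 hypoxia-induced genes 9 were higher and 6 lower than control, with a median of 0.03, and 0 passed (2 had an unadjusted p under 0.05, against 7.18% of all genes). Slc2a1, a glucose transporter, was 0.41 ± 0.16 and Pfkfb3, an activator of glycolysis, -1.16 ± 0.51, with adjusted p of 0.597 and 0.645 (limma). Against low 5 of the 15 hypoxia-induced genes had an unadjusted p under 0.05 at the high dose-rate (limma), against 10.1% of all genes, and 0 passed.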

How the data were processed

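Liver RNA was read on 20 Affymetrix arrays. The deposited table holds signal intensity on a linear scale for 45101 probe sets, made by the authors with MAS5, per the submitters' processing notes. The MAS5 version was not given in the sources used here. All arrays had the same 2% trimmed mean of 500.0. The platform annotation gave 1 symbol for 34945 probe sets and several for 932, and 34741 were matched to RefSeq. Signals were taken as log2(signal + 7.12), the 10th percentile of all signals, which understates changes of dim probe sets. Probe sets with a mean of at least the median (84.7) were kept (22519), 1 per gene: one not ending in _s_at or _x_at first, then the highest mean (11217 genes). With limma 3.58.1 in R 4.3.3 (lmFit, eBayes with a variance trend), dose level and experiment were fitted to all 20 arrays, with Benjamini-Hochberg adjustment over all genes and a threshold of 0.05. A fit over 45037 probe sets served the second probe sets. The steps were tested on simulated data.

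Members and lists were chosen with earlier results of these data known. Non-members named were the nearest in pattern and up to 4 per list with the smallest p for high against control. For lipase partners and relatives of Angptl4 this also held for high against low. Members past the threshold in any contrast were named for these lists and the Angptl4 regulators. The other lists had members that passed between experiments, not all named. Higher and lower in experiment 2 were 4 and 0 of 10 lipases and 11 and 2 of 29 PPAR alpha targets. For glucocorticoid genes it was 3 and 3 of 17 and for hypoxia genes 3 and 4 of 15, against 28.0% and 14.6% of all genes. List members named for a small p against control were picked on that contrast. Their counts of high mice above or below a pool are a description. Of 7 relations between mice, Angptl4 with the main Lpl probe set was planned and the others were added after seeing the data; relations planned with Lipc could not be run. Alternatives covered the pseudocount, filter, probe set, scaling, model terms, pools, experiments and single arrays. Precision is limited by the number of arrays, and a p-value reflects only variation among these samples.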

Additional observations from a re-analysis of the deposited data

How the results depend on the processing

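Alternatives were run for 20 results. With no filter Angptl4 was read from its dim probe set, which gave -0.19 for high against control, 0.42 for medium against control, 0.76 for medium against low and 0.18 for experiment 2 against 1, given without a test. Under the other alternatives all 3 differences of Angptl4 from control stayed negative. Leaving out 1 array at a time gave -1.75 to -1.43 at the high, -1.35 to -1.07 at the medium and -0.78 to -0.49 at the low dose-rate, with both ends at the low and medium dose-rates set by a pool. Medium against low ranged from -0.71 to -0.47, and experiment 2 against 1 from 0.53 to 0.72. For Lpl, the second probe set, added after seeing the data, gave -0.024 for high against control, -0.33 for medium against control and -0.16 for high against low. High against low was -0.29 in experiment 1 alone, and medium against low was 0.11 in experiment 2 alone. Leaving out 1 array gave 0.39 to 0.61 at the high, 0.16 to 0.38 at the medium and 0.31 to 0.54 at the low dose-rate, -0.05 to 0.19 for high against low (-0.051 without high mouse 3 of experiment 1, -0.039 and -0.049 without low or high mouse 1 of experiment 2) and -0.41 to -0.26 for experiment 2 against 1. The last passed without high mouse 1 of experiment 1 or without medium or high mouse 1 of experiment 2 (adjusted p = 0.0444, 0.0415 and 0.0465, limma). The r of Angptl4 with Lpl ranged from -0.58 (without high mouse 3 of experiment 1) to -0.22 when 1 mouse was left out, and was -0.19 with arrays centred on their median. The cause of these changes was not tested. With the replicate number as a block, medium against low was -0.57 for Angptl4 (adjusted p = 0.372, limma) and -0.17 for Lpl, and no call changed. The labels give same-numbered mice only a number in common. Of 18 same-numbered pairs 6 had correlated deviations above 0.1 (-0.15 to 0.30), while 14 of 18 mice correlated best with a mouse of their own number. What the number stands for was not tested, and the main fit and the relations between mice took no account of it. In the block fit, run without the pools, the SE of medium against low was 0.18 for Angptl4 and 0.16 for Lpl, beside 0.21 for each in the main fit. With median-centred arrays the median of all genes moved by -0.10 at the high dose-rate and those of Angptl4 regulators and hypoxia genes to -0.29 and -0.08.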
